A study of Mus musculus with 16 samples.

Results

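The 10 genes described here are those of hepcidin and hepatic iron handling: Hamp, Hamp2, Bmp6, Id1, Hfe, Tfrc, Tfr2, Slc40a1, Fth1 and Ftl1. They were chosen by gene symbol, with earlier results of these data known, and all 10 were found among the 25719 genes of the deposited table. Whole livers of 16 mice were profiled by RNA sequencing, and the study asked how the receptor NKG2D, encoded by Klrk1, shapes the early response of the liver to a diet that causes steatohepatitis. C57BL6J wild-type (WT) mice received a normal chow diet (NCD; n = 4) or the steatosis-steatohepatitis diet (SSD; n = 5), which is rich in fat, fructose and cholesterol, and Klrk1-/- mice, which lack NKG2D, received NCD (n = 4) or SSD (n = 3). The animals were males of 8 to 12 weeks kept on their diet for 3 weeks, and each library is 1 mouse. The lines were kept as breeding colonies, and the sources used here do not say whether WT and Klrk1-/- mice were littermates, so genotype and colony cannot be told apart.

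Iron enters the body through the gut and is recycled by macrophages, and both release it through ferroportin, the only known cellular iron exporter. Hepcidin, a peptide hormone secreted by hepatocytes, binds ferroportin and causes its degradation, so that less iron reaches the blood. Hepatocytes adjust hepcidin transcription to iron through bone morphogenetic proteins (BMPs) of the sinusoidal endothelium, which signal through SMAD proteins, and to inflammation through IL-6 and STAT3. Mice carry a pair of hepcidin genes, Hamp and Hamp2, and the Hamp product is the iron-regulating hormone.

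The messages of ferritin, ferroportin and the transferrin receptor carry iron-responsive elements, hairpins bound by iron regulatory proteins when iron is scarce. In a 5′ untranslated region (UTR) a bound element blocks translation, and in the 3′ UTR of Tfrc it protects the message from decay. A search of GENCODE M39 transcripts on GRCm39 for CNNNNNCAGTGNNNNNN with 5 paired bases on each side of the loop found the sites below, with the loop in capitals. Of the sites, 1 of the 4 in the Tfrc 3′ UTR is shown, and the others lie in 5′ UTRs. The Slc40a1 and Ftl1 sites are on the reverse strand.
Fth1 chr19:9960096-9960124: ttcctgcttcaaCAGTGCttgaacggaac
Ftl1 chr7:45109203-45109231: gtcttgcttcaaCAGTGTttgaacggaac
Slc40a1 chr1:45964625-45964653: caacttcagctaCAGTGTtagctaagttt
Tfrc chr16:32450037-32450065: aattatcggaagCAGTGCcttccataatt

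No such site was found in the UTRs of the remaining 6 genes. Over the transcriptome, the pattern occurred in 0.116% of 20696 5′ UTRs and in 0.576% of 21536 3′ UTRs. An effect on translation is not seen in mRNA counts, whereas one on message stability is.

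The libraries held 19892025 to 28936707 reads on genes, and the values below are normalized counts as the authors scaled them unless named otherwise. Klrk1, the deleted gene, matched the labels: it ranged from 20.1 to 28.7 in NCD-fed WT livers and from 32.9 to 71.1 in SSD-fed WT livers, against 1.23 to 8.71 (1 to 7 reads) and 0.966 to 4.29 (1 to 5 reads) in Klrk1-/- livers on the respective diets. Albumin and the other hepatocyte markers were by far the most abundant of 9 marker lists, and no library lacked them. SSD-fed WT replicate 1 stood apart from its group. Its mean correlation with the other mice of the group was 0.968, against 0.979 to 0.990 for the other 15 libraries, and it held the highest summed Kupffer cell (11430), recruited macrophage (9085) and proliferation (2096) markers of all mice. Calls on the genes named below that changed without it are given both ways. The diet changed 34.9% of 13091 genes tested in WT livers (17.3% higher, 17.6% lower) and 29.4% of 12904 in Klrk1-/- livers (13.4% higher, 16% lower), at an adjusted p under 0.05 by limma with Benjamini-Hochberg adjustment over all genes tested. Klrk1-/- and WT livers differed in 13.1% of 12845 genes on NCD (6.41% higher, 6.66% lower) and in 2.9% of 13116 genes on SSD (1.22% higher, 1.68% lower), and the diet effect differed between genotypes in 0.88% of 13068 genes (0.321% higher, 0.559% lower).

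Per kilobase of transcript, the order of the 10 genes spanned more than 3 orders of magnitude. In NCD-fed WT livers Ftl1 was the highest at 86759 ± 8673 normalized counts per kb (SD, n = 4), followed by Hamp at 64152 ± 8032 and Fth1 at 35427 ± 2948. Tfr2 (5920 ± 139), Hamp2 (1492 ± 191), Slc40a1 (1002 ± 72.0), Hfe (619 ± 85.8), Tfrc (341 ± 80.4), Id1 (66.6 ± 9.88) and Bmp6 (38.3 ± 10.9) followed, and no pair of neighbours in this order overlapped between mice. In SSD-fed WT livers Slc40a1 stood above Hfe and Hamp2, at 2511 ± 324 normalized counts per kb (n = 5), and Hamp2, Id1 and Tfrc overlapped each other. There the mean of Fth1 (49716 ± 6389) was above that of Hamp (42909 ± 6161), with overlap between mice, and Tfr2 overlapped Slc40a1. In Klrk1-/- livers Ftl1 and Hamp overlapped on both diets, and on SSD Hamp also overlapped Fth1, as it did in SSD-fed WT livers.

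**Figure D1:**
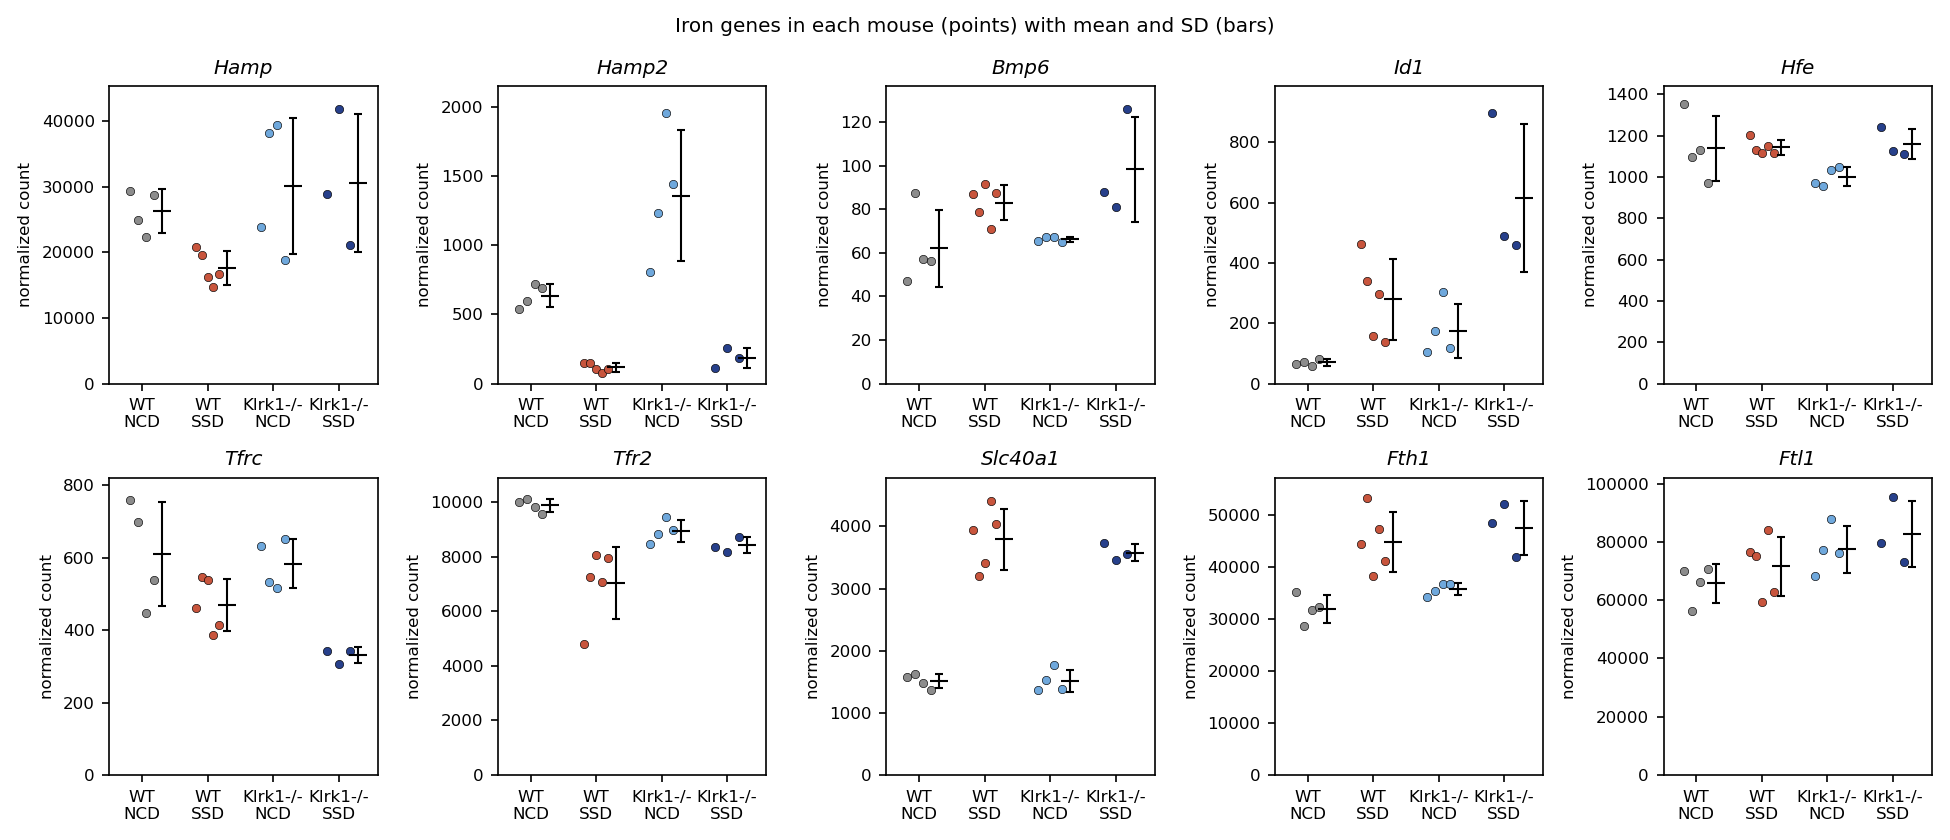
Normalized count (vertical axes, from 0) of each of the 10 genes in each mouse (points) of the 4 groups, with the group mean and SD (bars; n = 4, 5, 4 and 3). Hamp2 fell and Slc40a1 and Id1 rose on SSD in both genotypes without overlap between diets, whereas Hamp was lower on SSD in WT mice and spread widely in Klrk1-/- mice.

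The first comparison asks what SSD did to these genes in WT livers. Of the 10 genes, 6 passed the test, 3 higher (Id1, Slc40a1, Fth1) and 3 lower (Hamp, Hamp2, Tfr2), against 34.9% of all genes. This split depended on the scaling: with every mouse scaled to the same total, 7 passed, 6 higher (Bmp6, Id1, Hfe, Slc40a1, Fth1, Ftl1) and 1 lower (Hamp2), and over all genes 6339 were higher and 717 lower in place of 2265 and 2303. The median log2 fold change was 0.07 over the 10 genes and -0.0015 over all genes tested. For 6 of the 10 genes the SSD-fed mice were all above or all below every NCD-fed mouse, as for 29.0% of all genes. The same 6 genes passed without SSD-fed WT replicate 1. The same comparison in Klrk1-/- livers also gave 6 genes of 10, 4 higher (Bmp6, Id1, Slc40a1, Fth1) and 2 lower (Hamp2, Tfrc), against 29.4% of all genes, and in 7 of the 10 genes the diets did not overlap, as in 37.6% of all genes. With equal totals 8 passed in Klrk1-/- livers, Hfe and Ftl1 being the added ones and both higher, and over all genes 4830 were higher and 805 lower in place of 1723 and 2067. The median log2 fold change was 0.15 over the 10 genes and -0.0020 over all genes tested. Since the diet comparisons within each genotype use different mice, their values are set side by side below, and the test of their difference is the interaction term.

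Hamp (ENSMUSG00000050440; chromosome 7, 30641793 to 30643457, reverse strand), the gene of the hepcidin hormone, fell on SSD in WT livers and did not pass in Klrk1-/- livers. NCD-fed WT mice held 29311, 24948, 22291 and 28659 normalized counts, and SSD-fed WT mice 20779, 19653, 16155, 14737 and 16639. Every SSD-fed WT mouse was below every NCD-fed WT mouse, with a log2 fold change of -0.58 ± 0.13 (SE; adjusted p = 0.00548, limma) and an exact two-sided permutation p = 0.0159, the smallest that 4 against 5 mice can give. Without SSD-fed WT replicate 1 the log2 fold change was -0.65 (adjusted p = 0.00154). Scaling every mouse to the same total moved the median of all genes by 0.34 log2 in this comparison and the Hamp value to -0.24 (adjusted p = 0.143), which is -0.58 relative to that median, and quantile normalization gave -0.22 (adjusted p = 0.201).

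In Klrk1-/- livers Hamp ranged widely within each diet. The NCD-fed mice held 23827, 38235, 39439 and 18876 normalized counts, and the SSD-fed mice 28893, 41821 and 21040. The diets overlapped almost completely, and the log2 fold change was 0.04 ± 0.27 (adjusted p = 0.933). Its sign changed when NCD-fed Klrk1-/- replicate 1 or 4 or SSD-fed replicate 2 was left out, over a range of -0.22 to 0.28. The SD of Hamp was 10307 and 10493 normalized counts in the Klrk1-/- groups and 3293 and 2526 in the WT groups, on NCD and SSD in that order. The difference of the diet effects between genotypes was 0.62 ± 0.32 log2 (adjusted p = 0.331, limma), so Hamp's fall in WT mice was not shown to differ from its value in Klrk1-/- mice.

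Hamp2 (ENSMUSG00000056978; chromosome 7, 30621797 to 30624106, reverse strand), the second hepcidin gene, had the largest fall of the 10 genes in both genotypes. It held 541, 599, 720 and 689 normalized counts in NCD-fed WT livers and 152, 149, 108, 74.6 and 106 in SSD-fed WT livers. In Klrk1-/- livers it held 809, 1236, 1957 and 1443 on NCD and 114, 256 and 183 on SSD. No SSD-fed mouse reached an NCD-fed mouse of its genotype. The log2 fold change was -2.46 ± 0.19 in WT mice (adjusted p = 3.23e-06) and -2.88 ± 0.29 in Klrk1-/- mice (adjusted p = 2.53e-05), a mean ratio of 0.185 and 0.136. Hamp2 passed in both genotypes under all 19 and 17 alternatives tried. The interaction was -0.42 ± 0.38 log2 (adjusted p = 0.591).

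Hamp and Hamp2 therefore moved by different amounts on the same diet. Of the reads on both genes, Hamp2 took 1.81%, 2.34%, 3.13% and 2.35% in NCD-fed WT mice and 0.727%, 0.751%, 0.667%, 0.504% and 0.634% in SSD-fed WT mice. In Klrk1-/- mice the share was 3.28%, 3.13%, 4.73% and 7.10% on NCD and 0.393%, 0.609% and 0.864% on SSD. The share fell in all SSD-fed mice of both genotypes relative to every NCD-fed mouse of that genotype (exact two-sided permutation p = 0.0159 in WT mice and 0.0571 in Klrk1-/- mice, the smallest that 4 against 3 mice can give). The exact 95% intervals of these shares, which cover counting error only, ran from 1.65% to 1.99% for the lowest NCD-fed mouse and from 0.753% to 0.988% for the highest SSD-fed mouse. The longest identical run of the annotated transcripts is 87 bases and the reads were 100 bases long, so that no full-length read without errors fits both genes.

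**Figure D2:**
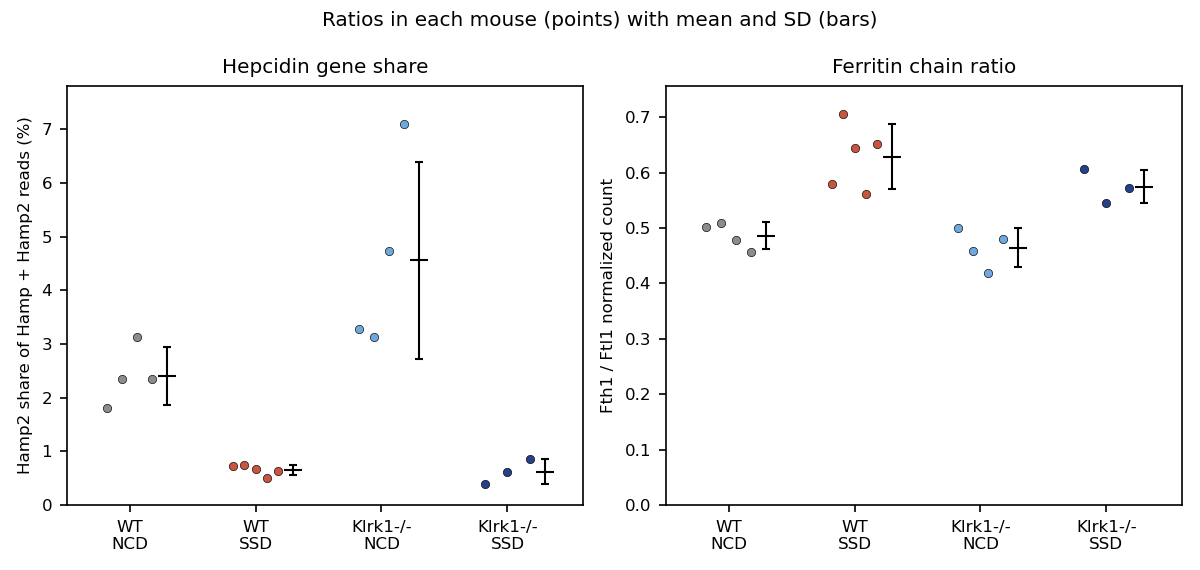
Hamp2 share of the reads on both hepcidin genes (left, percent) and ratio of Fth1 to Ftl1 normalized counts (right), by mouse (points) with group mean and SD (bars). The hepcidin share was 1.81% or higher in all NCD-fed mice and 0.864% or lower in all SSD-fed mice, and the ferritin ratio was 0.508 or lower on NCD and 0.546 or higher on SSD.

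Bmp6 (ENSMUSG00000039004; chromosome 13, 38529083 to 38684278), the iron-induced ligand made by sinusoidal endothelium, was the lowest of the 10 genes. NCD-fed WT mice held 47.0, 87.6, 57.4 and 56.3 normalized counts and SSD-fed WT mice 87.0, 78.6, 91.4, 71.1 and 87.4, whereas NCD-fed Klrk1-/- mice held 65.5, 67.2, 67.2 and 65.2 and SSD-fed Klrk1-/- mice 87.9, 81.1 and 126. The diets overlapped in WT mice through NCD-fed WT replicate 2 and did not overlap in Klrk1-/- mice. The log2 fold change was 0.45 ± 0.18 in WT mice (adjusted p = 0.078) and 0.54 ± 0.17 in Klrk1-/- mice (adjusted p = 0.0342). Neither call was firm: the WT value was 0.62 (adjusted p = 0.015) without NCD-fed WT replicate 2 and 0.79 (adjusted p = 0.00746) with equal totals, and it passed with all 4 groups in 1 model (adjusted p = 0.0424), and the Klrk1-/- call was lost without NCD-fed Klrk1-/- replicate 1 (0.53, adjusted p = 0.0623), 2 (0.54, 0.061) or 4 (0.53, 0.0645), or without SSD-fed replicate 1 (0.60, 0.0613) or 3 (0.35, 0.163). The Klrk1-/- call was also lost with no minimum mean (adjusted p = 0.0633) and with all 4 groups in 1 model (adjusted p = 0.0515). Over the 19 alternatives tried in WT mice, the log2 fold change of Bmp6 ran from 0.16 to 0.79, and it passed in 3 of them. Bmp6 had 39 to 147 reads per mouse, and Id1 had 45 to 75 in NCD-fed WT mice, so counting error weighs on both genes there. Bmp6 overlaps Txndc5 on the opposite strand, and the strand setting of the read counting is not given in the sources used here, so reads of the overlap cannot be assigned to either gene. Summed sinusoidal endothelial markers ranged from 3504 to 6171 in NCD-fed WT mice, highest in replicate 2, and from 5360 to 7062 in SSD-fed WT mice. In Klrk1-/- mice the sums were 4908 to 5834 on NCD and 5208 to 6840 on SSD. Their part in the Bmp6 values was not tested.

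Id1 (ENSMUSG00000042745; chromosome 2, 152578171 to 152579330), a transcriptional inhibitor and a direct target of BMP-SMAD signalling, had the largest rise of the 10 genes in both genotypes. It held 65.1, 72.5, 58.7 and 82.8 normalized counts in NCD-fed WT livers and 462, 339, 159, 297 and 139 in SSD-fed WT livers. In Klrk1-/- livers it held 105, 174, 302 and 119 on NCD and 898, 491 and 459 on SSD. The diets did not overlap in either genotype, with log2 fold changes of 1.85 ± 0.31 in WT mice (adjusted p = 0.000894) and 1.87 ± 0.33 in Klrk1-/- mice (adjusted p = 0.00142), and SSD-fed WT replicate 1 was the highest WT mouse (1.64 and adjusted p = 0.000490 without it). The interaction was 0.02 ± 0.51 log2 (adjusted p = 0.991), and it changed sign under several alternatives. Id1 thus rose on SSD while Hamp2 fell in both genotypes and Hamp fell in WT mice.

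To see whether Id1 stood alone, 8 further BMP-SMAD target genes were read from the same fits. In WT livers 4 of 8 were higher on SSD and none lower: Smad9 (1.59 ± 0.29 log2, adjusted p = 0.00177), Id4 (1.06 ± 0.22, 0.00310), the inhibitory SMAD gene Smad7 (0.92 ± 0.12, 0.000162) and Atoh8 (0.71 ± 0.13, 0.00140). Of all genes, 17.3% were higher and 17.6% lower in WT livers and 13.4% and 16% in Klrk1-/- livers, and the same shares apply to the lists that follow. In Klrk1-/- livers 6 of 8 were higher and none lower, led by Atoh8 (1.27 ± 0.18, adjusted p = 0.000389), Id2 (1.17 ± 0.21, 0.00148) and Id4 (1.14 ± 0.34, 0.0274). The median log2 fold change of the 8 genes was 0.34 in WT mice and 0.92 in Klrk1-/- mice. Id2 was unlike Id1 in that it did not pass in WT mice (-0.07 ± 0.13, adjusted p = 0.715), and its diet effect was larger in Klrk1-/- mice by 1.24 ± 0.27 log2 (adjusted p = 0.034 for the interaction, limma). Several of these genes answer to other signals as well, and which signal acted was not tested.

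**Figure D3:**
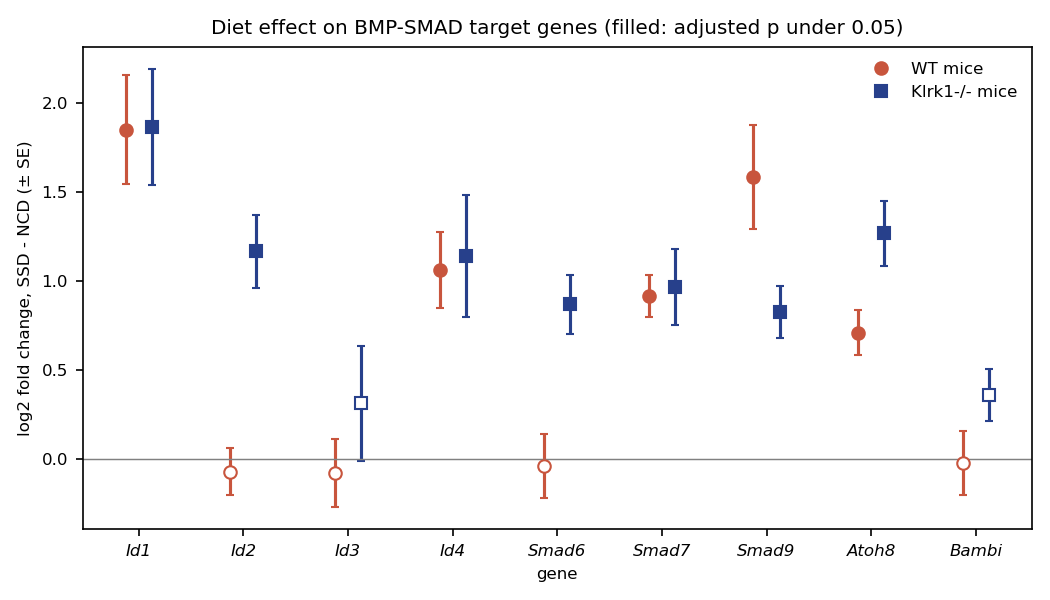
Log2 fold change of SSD against NCD (vertical axis, ± SE) for Id1 and 8 other BMP-SMAD target genes in WT (circles; 4 against 5 mice) and Klrk1-/- mice (squares; 4 against 3); filled symbols passed an adjusted p of 0.05 by limma. Id1, Id4, Smad7, Smad9 and Atoh8 were higher in both genotypes, and Id2 and Smad6 passed in Klrk1-/- but not in WT mice, a difference that passed the interaction test for Id2 and not for Smad6 (adjusted p = 0.0997).

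The ligand and receptor side of the pathway was mixed. Of 12 tested ligands, receptors, transducers and inhibitors, 1 was higher and 5 lower on SSD in WT livers, and 2 were higher, Acvr2a (0.34 ± 0.09 log2) and Bmpr1a (0.29 ± 0.09), and 2 lower, Hjv and Smad1 (-0.34 ± 0.11), in Klrk1-/- livers. In WT mice Bmp2, a second endothelial ligand of hepcidin control, was higher (0.69 ± 0.15 log2, adjusted p = 0.00493), and Bmp4 (-0.97 ± 0.22, 0.00506), Smad1 (-0.41 ± 0.09, 0.00604) and the receptor gene Acvr1 (-0.38 ± 0.11, 0.0194) were among the lower. So was the inhibitor gene Tmprss6 (-0.37 ± 0.12, adjusted p = 0.0388), which did not pass in Klrk1-/- mice (-0.07 ± 0.08, 0.56). Hjv, the hemojuvelin co-receptor that Hamp induction needs, was lower on SSD in both genotypes, by -0.33 ± 0.09 log2 in WT mice (adjusted p = 0.0118) and by -0.94 ± 0.10 in Klrk1-/- mice (adjusted p = 3.58e-05). The difference between these effects was -0.61 ± 0.13 log2 (adjusted p = 0.034). Hjv ranged from 2653 to 3298 normalized counts in NCD-fed Klrk1-/- mice, above the 1936 to 2276 of NCD-fed WT mice, and the SSD-fed groups overlapped.

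In the IL-6-STAT3 arm, which drives hepcidin in inflammation, 12 of 13 genes were tested, and Il6 itself was at 0 to 1.33 normalized counts in every liver and was not tested. In WT livers 3 genes were higher on SSD, namely Il22ra1 (2.83-fold, adjusted p = 9.04e-05), Il6ra (0.50 ± 0.17 log2) and Jak2 (0.32 ± 0.10), and 3 lower, namely the acute phase genes Saa1 (-1.07 ± 0.35) and Fgb (-0.71 ± 0.13) and the transcription factor Stat3 (-0.54 ± 0.10, adjusted p = 0.00151). Without SSD-fed WT replicate 1, Jak2 did not pass (0.27, adjusted p = 0.0524) and Pias3, an inhibitor of STAT3, did (0.35, adjusted p = 0.0243). In Klrk1-/- livers Il22ra1 was higher (4.02-fold) and 4 genes were lower, led by Saa2 (-1.47 ± 0.22), Saa1 (-1.14 ± 0.24) and Fgb (-0.38 ± 0.12). Saa1 and Saa2 are near-identical copies, so reads may be divided between them with error.

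Hfe and Tfr2 are iron sensors of the hepatocyte surface. Tfr2 (ENSMUSG00000029716; chromosome 5, 137568102 to 137585743), the second transferrin receptor, which binds iron-loaded transferrin and promotes Hamp transcription, held 9994, 10116, 9831 and 9579 normalized counts in NCD-fed WT mice and 4808, 7259, 8075, 7067 and 7950 in SSD-fed WT mice. All SSD-fed WT mice were lower, and replicate 1, at 4808, was the lowest, with the next at 7067. The log2 fold change was -0.51 ± 0.14 (adjusted p = 0.0136) and -0.38 (adjusted p = 0.00376) without that mouse, and the call was lost with equal totals (-0.17, adjusted p = 0.242; -0.51 relative to the median of all genes) and with quantile normalization (-0.18, adjusted p = 0.285).

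In Klrk1-/- mice Tfr2 held 8482, 8830, 9448 and 8982 normalized counts on NCD and 8352, 8158 and 8735 on SSD, and the diets overlapped (-0.09 ± 0.08 log2, adjusted p = 0.429). The interaction of Tfr2 was 0.43 ± 0.17 log2 (adjusted p = 0.223, limma), and 0.30 (adjusted p = 0.158) without SSD-fed WT replicate 1. Hfe (ENSMUSG00000006611; chromosome 13, 23886017 to 23894837, reverse strand), the atypical MHC class I protein mutated in hereditary hemochromatosis, did not pass in either genotype. It ranged from 972 to 1352 normalized counts in NCD-fed and from 1113 to 1202 in SSD-fed WT mice (0.01 ± 0.09 log2, adjusted p = 0.919). In Klrk1-/- mice it ranged from 958 to 1047 on NCD and from 1113 to 1244 on SSD, without overlap, at 0.21 ± 0.08 log2 (adjusted p = 0.0686). With equal totals it passed in both, at 0.36 in WT (adjusted p = 0.00726) and 0.47 in Klrk1-/- mice (adjusted p = 0.000887), and with quantile normalization in Klrk1-/- mice (0.24, adjusted p = 0.0402).

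Tfrc (ENSMUSG00000022797; chromosome 16, 32427738 to 32451612), the classical transferrin receptor that imports iron, fell on SSD in Klrk1-/- livers. These held 632, 534, 516 and 652 normalized counts on NCD and 344, 307 and 344 on SSD, with no overlap and a log2 fold change of -0.81 ± 0.11 (adjusted p = 0.000233). WT mice held 760, 700, 447 and 539 on NCD and 460, 546, 538, 387 and 415 on SSD. These overlapped (-0.36 ± 0.16 log2, adjusted p = 0.099), and without NCD-fed WT replicate 3, the lowest of its group, the value was -0.50 (adjusted p = 0.031). With equal totals the WT value was -0.0182 (adjusted p = 0.927), which is -0.36 relative to the median of all genes. The interaction was -0.45 ± 0.22 log2 (adjusted p = 0.299, limma), so a difference in the Tfrc response between genotypes was not shown.

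Slc40a1 (ENSMUSG00000025993; chromosome 1, 45947228 to 45965683, reverse strand), which encodes ferroportin, rose on SSD in both genotypes to similar levels. NCD-fed WT mice held 1571, 1624, 1486 and 1375 normalized counts, and SSD-fed WT mice 3934, 3194, 3407, 4404 and 4031. In Klrk1-/- mice the values were 1367, 1527, 1762 and 1390 on NCD and 3726, 3464 and 3548 on SSD. Each SSD-fed mouse stood above every NCD-fed mouse of either genotype. The log2 fold change was 1.32 ± 0.10 in WT mice (adjusted p = 3.42e-06; mean ratio 2.51) and 1.25 ± 0.10 in Klrk1-/- mice (adjusted p = 3.24e-06; mean ratio 2.37), and both passed under all 19 and 17 alternatives tried. The interaction was -0.07 ± 0.15 log2 (adjusted p = 0.836).

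Ferroportin is made by macrophages and hepatocytes alike, and bulk livers cannot tell more cells of a type from more RNA per cell. Of all genes, 17.3% were higher and 17.6% lower on SSD in WT mice, and 13.4% and 16% in Klrk1-/- mice. In WT mice 4 of 7 Kupffer cell markers were higher on SSD and their summed level went from between 3729 and 4040 on NCD to between 5351 and 11430 on SSD. Without SSD-fed WT replicate 1, 2 of 7 were higher. In Klrk1-/- mice 2 of 7 were higher, with sums of 3191 to 3974 on NCD and 4006 to 5151 on SSD. Recruited macrophage markers were higher for 6 of 7 genes in WT mice and 4 of 7 in Klrk1-/- mice, and of 7 sinusoidal endothelial markers 5 were higher in WT mice and none in Klrk1-/- mice. Proliferation markers were higher for 7 of 7 genes in WT mice (sum of 151 to 209 on NCD, 304 to 2096 on SSD) and for none of 6 tested in Klrk1-/- mice (182 to 268 on NCD, 123 to 185 on SSD). Stellate cell markers were higher for 4 of 7 genes in WT mice, or 2 of 7 without SSD-fed WT replicate 1, and for 3 of 7 in Klrk1-/- mice. Hepatocyte markers were lower for 4 of 7 genes in WT mice (sum of 2345122 to 2687803 on NCD, 1492055 to 1897731 on SSD) and 5 of 7 in Klrk1-/- mice. Of the erythroid markers, 5 of 7 were tested in each genotype and 1 was lower in both, Alas2 (-0.69 ± 0.14 and -0.46 ± 0.13 log2; adjusted p = 0.00309 and 0.0187), the heme synthesis gene of red cell precursors, with summed levels of 5787 to 8095 on NCD and 2246 to 9861 on SSD in WT mice and of 3970 to 11038 and 4222 to 15987 in Klrk1-/- mice. Of the T and NK cell markers, 1 of 3 tested was higher in WT mice, Trac (0.99 ± 0.34, adjusted p = 0.0398, and 0.94, adjusted p = 0.0628, without SSD-fed WT replicate 1), and none of 4 in Klrk1-/- mice. Of 5 cholangiocyte markers none passed in WT mice and 1 was higher in Klrk1-/- mice, Epcam (1.01 ± 0.24, adjusted p = 0.00889). None of the macrophage, endothelial, stellate and hepatocyte markers was at 0 in any mouse, and the part of these lists in the changes of the iron genes was not tested.

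Ferritin, the iron storage protein, is built from heavy and light chains in a ratio that varies between tissues. Fth1 (ENSMUSG00000024661; chromosome 19, 9957962 to 9962462), the heavy chain that oxidizes iron, held 35123, 28637, 31705 and 32214 normalized counts in NCD-fed WT mice and 44301, 53172, 38302, 47178 and 41016 in SSD-fed WT mice. In Klrk1-/- mice it held 34235, 35361, 36755 and 36643 on NCD and 48312, 52005 and 41785 on SSD. The diets did not overlap in either genotype, and the log2 fold change was 0.48 ± 0.13 in WT mice (adjusted p = 0.0120) and 0.40 ± 0.10 in Klrk1-/- mice (adjusted p = 0.0123). The Klrk1-/- value was 0.38 (adjusted p = 0.0554) without SSD-fed Klrk1-/- replicate 1. With equal totals the values were 0.83 in WT and 0.66 in Klrk1-/- mice, and quantile normalization gave 0.97 in WT mice.

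Ftl1 (ENSMUSG00000050708; chromosome 7, 45107368 to 45109308, reverse strand), the light chain, ranged from 56346 to 70637 normalized counts on NCD and from 59496 to 84001 on SSD in WT mice, and from 68446 to 87732 and from 73077 to 95278 in Klrk1-/- mice. The diets overlapped in both genotypes (0.12 ± 0.15 log2, adjusted p = 0.569; 0.09 ± 0.13, adjusted p = 0.628). With equal totals Ftl1 passed in both, at 0.46 in WT (adjusted p = 0.0152) and 0.35 in Klrk1-/- mice (adjusted p = 0.0223), and with quantile normalization in WT mice (0.55, adjusted p = 0.0135). Within the same livers the ratio of Fth1 to Ftl1 counts rose from 0.486 ± 0.0239 to 0.629 ± 0.0583 in WT mice (SD), and from 0.465 ± 0.0348 to 0.575 ± 0.0303 in Klrk1-/- mice. This ratio needs no scaling between mice, and it did not overlap between diets (exact two-sided permutation p = 0.0159 and 0.0571, the smallest these group sizes allow). Ftl1 overlaps Gm10252 on the opposite strand, and both ferritin genes have processed copies elsewhere in the genome that could take or share reads.

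**Figure D4:**
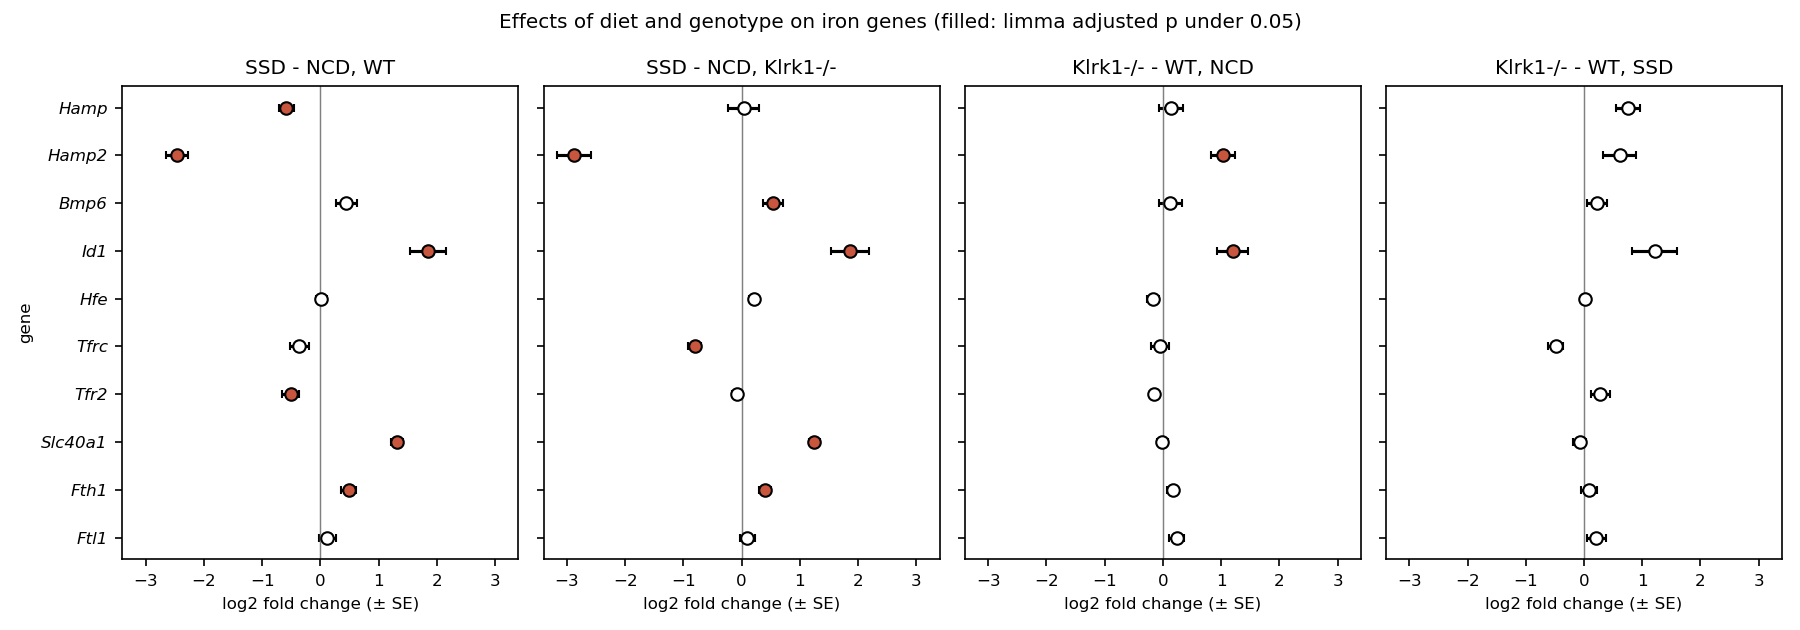
Log2 fold change (horizontal axes, ± SE) of the 10 genes in 4 comparisons: SSD minus NCD in WT and in Klrk1-/- mice, and Klrk1-/- minus WT on NCD and on SSD. Filled points passed an adjusted p of 0.05 by limma: 6 genes for the diet in each genotype, 2 (Hamp2 and Id1) for the genotype on NCD and 0 for the genotype on SSD.

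The genotype comparisons ask whether the loss of NKG2D changed these genes on either diet. On NCD, 2 of the 10 genes passed, both higher in Klrk1-/- livers, against 13.1% of all genes, and 3 of 10 did not overlap between genotypes, as in 19.3% of all genes. Hamp2 was 1.03 ± 0.21 log2 higher (adjusted p = 0.00854) and Id1 1.20 ± 0.27 log2 higher (adjusted p = 0.0151). All 4 Klrk1-/- mice were above all 4 WT mice for both genes (exact two-sided permutation p = 0.0286, the smallest possible here), and both passed whichever mouse was left out. Tfr2 did not overlap either, with every Klrk1-/- mouse lower, but did not pass (-0.15 ± 0.08 log2, adjusted p = 0.229). With quantile normalization Fth1 (0.36, adjusted p = 0.0138) and Ftl1 (0.35, adjusted p = 0.0395) passed as well, both higher in Klrk1-/- mice. Hamp did not differ beyond its spread (0.13 ± 0.21 log2, adjusted p = 0.687), and Slc40a1 was at nearly the same mean, 1512 ± 181 in Klrk1-/- and 1514 ± 109 in WT mice. The median log2 fold change was 0.13 over the 10 genes and 0.0018 over all genes tested. Of the marker genes, the endothelial gene Stab2 was higher in NCD-fed Klrk1-/- mice (0.52 ± 0.14 log2, adjusted p = 0.0287). The cholangiocyte gene Krt19 (-1.03 ± 0.25, 0.0214), the hepatocyte gene Tat (-0.78 ± 0.18, 0.0174) and the Kupffer cell gene Marco (-0.77 ± 0.22, 0.0375) were lower. No other marker gene passed, and their part in these values was not tested.

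On SSD, none of the 10 genes passed in limma, against 2.9% of all genes. Of the 10, 3 had an unadjusted p under 0.05, edgeR called 0 and DESeq2 called 2. They were Hamp (0.75 ± 0.20 log2 higher in Klrk1-/- mice, adjusted p = 0.075), Id1 (1.21 ± 0.38 higher, adjusted p = 0.107) and Tfrc (-0.49 ± 0.13, adjusted p = 0.0687). For Hamp, all 3 SSD-fed Klrk1-/- mice, at 21040 to 41821 normalized counts, were above the 5 SSD-fed WT mice, at 14737 to 20779, but the lowest and the highest of these groups were almost adjacent. For Tfrc, the Klrk1-/- mice were all lower. Hamp, Tfrc and Tfr2 did not overlap between genotypes (exact two-sided permutation p = 0.0357 each, the smallest possible), as in 17.9% of all genes. DESeq2 called Hamp (0.80 log2, adjusted p = 0.00248) and Tfrc (-0.50, adjusted p = 0.0134). Over all genes tested in this comparison DESeq2 called 1221, where limma called 381. Without SSD-fed WT replicate 1, limma called Hamp (0.82, adjusted p = 0.037) and Id1 (1.43, adjusted p = 0.0297). The Hamp value also rested on the SSD-fed Klrk1-/- mice, with 0.499 (adjusted p = 0.231) without replicate 2 and 0.99 without replicate 3. Tfrc passed with equal totals (-0.60, adjusted p = 0.0354). The median log2 fold change was 0.21 over the 10 genes and -0.0010 over all genes tested.

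The diet effect did not differ between genotypes for any of the 10 genes by limma (0 of 10, with 1, Tfr2, at an unadjusted p under 0.05, 0 by edgeR and 0 by DESeq2), against 0.88% of all genes. The interaction was 0.62 ± 0.32 log2 for Hamp, 0.43 ± 0.17 for Tfr2, -0.45 ± 0.22 for Tfrc and -0.42 ± 0.38 for Hamp2. With a mouse left out, the Hamp value ran from 0.36 (without SSD-fed Klrk1-/- replicate 2) to 0.86 (without replicate 3), and the Hamp2 value from -0.70 (without replicate 2) to -0.11 (without replicate 1). With these standard errors, differences of this size between the genotypes could not be resolved. The median was -0.0045 log2 over the 10 genes and 0.0004 over all genes tested.

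Beyond the 10 genes, 87 genes of 9 lists of iron and hepcidin biology were read from the same fits, of which 78 were tested in the diet comparisons. In WT livers 15 were higher and 16 lower on SSD, and in Klrk1-/- livers 19 were higher and 13 lower, where 34.9% and 29.4% of all genes passed. Among uptake and transport genes, Scara5, a ferritin receptor, was lower in both genotypes (-2.76 ± 0.52 and -2.56 ± 0.33 log2; adjusted p = 0.00200 and 0.000170), as was the zinc and iron importer gene Slc39a14 (-0.33 ± 0.10 and -0.47 ± 0.15), and the metalloreductase gene Steap2 was higher in both (2.26-fold and 2.82-fold). Lcn2, a siderophore-binding protein of the acute phase, was higher in WT mice (2.46 ± 0.64 log2, adjusted p = 0.0122) and did not pass in Klrk1-/- mice (0.28 ± 0.18, adjusted p = 0.281). The difference was -2.18 ± 0.83 log2 (adjusted p = 0.196). In the list for export and oxidation, Abcg2 was higher in both genotypes (0.47 ± 0.13 and 0.53 ± 0.12 log2). Slc11a1, a macrophage metal transporter gene, was higher in WT mice (0.78 ± 0.25). Flvcr2, a transporter gene of that list not established as an iron exporter, was higher in both genotypes (2.59 ± 0.32 and 2.62 ± 0.37). The importer gene Slc11a2 was higher in Klrk1-/- mice (0.37 ± 0.10), and in WT mice it passed without SSD-fed WT replicate 1 (0.28, adjusted p = 0.0369), as did the transferrin gene Trf (-0.52, adjusted p = 0.0189).

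Of 7 genes of hemoglobin and heme scavenging, 2 were higher and 2 lower on SSD in WT mice, and 2 higher and 1 lower in Klrk1-/- mice. Hmox1, heme oxygenase 1, which frees iron from heme, was higher on SSD by 1.26 ± 0.21 log2 in WT mice (adjusted p = 0.000841) and by 0.66 ± 0.11 in Klrk1-/- mice (adjusted p = 0.00116), and Slc48a1, a lysosomal heme transporter gene, by 0.90 ± 0.09 and 0.96 ± 0.10. Lrp1, which takes up hemopexin-bound heme, and the heme carrier gene Slc46a1 were lower in WT mice (-0.42 ± 0.11 and -0.34 ± 0.10 log2). Hpx, the gene of hemopexin, was lower in Klrk1-/- mice (-0.39 ± 0.11), and in WT mice it passed without SSD-fed WT replicate 1 (-0.43, adjusted p = 0.0349). Of the 8 genes of iron-responsive control, Ireb2, the gene of iron regulatory protein 2, was lower in both genotypes (-0.47 ± 0.10 and -0.38 ± 0.11 log2; adjusted p = 0.00392 and 0.0274). Egln1, an oxygen-sensing prolyl hydroxylase gene, was higher in Klrk1-/- mice (0.47 ± 0.12), and Egln3 was lower in WT mice without SSD-fed WT replicate 1 (-0.54, adjusted p = 0.0183). Fbxl5, which marks iron regulatory protein 2 for decay when iron is present, was higher in Klrk1-/- mice (0.43 ± 0.11, adjusted p = 0.0137) and did not pass in WT mice (0.12 ± 0.12, adjusted p = 0.458). Of 11 genes of mitochondrial iron and iron-sulfur clusters, Bola3 and Isca2 were lower in both genotypes, and Slc25a37 and Isca1 were higher in Klrk1-/- mice. The iron chaperone list had 1 of 5 genes lower in each genotype, Bola2 in both, and none in WT mice without SSD-fed WT replicate 1.

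Between genotypes on NCD, 4 of these 78 genes were higher and 10 lower in Klrk1-/- mice, where 13.1% of all genes passed. Saa2 (-2.19 ± 0.42 log2), Saa1 (-2.05 ± 0.32), the metalloreductase gene Steap4 (-1.43 ± 0.18) and Ncoa4 (-0.71 ± 0.17), the receptor that sends ferritin to lysosomes, were lower, as were Acvr1 (-0.62 ± 0.10), Hpx (-0.44 ± 0.12), Hmox1 (-0.42 ± 0.12), Bmpr1a (-0.40 ± 0.10), Stat3 (-0.40 ± 0.09) and the iron chaperone gene Pcbp1 (-0.39 ± 0.11). Smad9 (1.06 ± 0.17), Hjv (0.53 ± 0.09), Cd163, the hemoglobin scavenger receptor gene (0.53 ± 0.13), and Pias3 (0.39 ± 0.12) were higher. On SSD, where 2.9% of all genes passed, 79 were tested, and 1 was higher, Id2 (1.12 ± 0.14 log2, adjusted p = 0.0061), and 4 lower: Lcn2 (-2.76 ± 0.61, adjusted p = 0.043), Saa2 (-2.47 ± 0.34, 0.00752), Saa1 (-2.12 ± 0.30, 0.00885) and Hmox1 (-1.01 ± 0.23, 0.0461). Without SSD-fed WT replicate 1, Id3 was also higher (0.86, adjusted p = 0.0475) and Steap4 also lower (-0.99, adjusted p = 0.0487). Of the marker lists, 4 of 7 proliferation markers, 1 of 7 Kupffer cell markers (Marco) and none of 7 recruited macrophage markers were lower in SSD-fed Klrk1-/- mice. Without SSD-fed WT replicate 1 these counts were 6, 2 (Marco and Cd5l) and 5, and the part of these lists in the values above was not tested. On NCD, as given above, Stab2 was the marker gene higher in Klrk1-/- mice, and Krt19, Tat and Marco were lower.

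As a description without a test, the genes whose log2 values were most like 4 of the 10 genes over the 16 mice were also listed. The mice share the diet and genotype groups, so a high correlation partly restates the group means. For Slc40a1 they were Abcb4 (r = 0.980), Map4k4 (0.980), Nt5dc2 (0.979), Bcl2l11 (0.974) and Cpt1a (0.973), whose correlations after removal of the group means were 0.371, 0.688, 0.550, 0.730 and 0.372. For Id1 they were Cadm3 (0.944), Smad7 (0.934), Cars (0.906), Sun2 (0.905) and Pnpla2 (0.905), with 0.762, 0.739, 0.764, 0.471 and 0.440 after removal of the group means, and Smad7 is itself a BMP-SMAD target. Tfrc was most like Atg7 (0.890), Cers2 (0.888), Exoc3 (0.884), Csnk1a1 (0.881) and Slc45a4 (0.879), with 0.649, 0.827, 0.768, 0.701 and 0.666 after that removal. For Hamp they were Plekhj1 (0.823), Atp23 (0.820), Mrpl58 (0.816), Auh (0.812) and Egf (0.796), with 0.696, 0.784, 0.766, 0.604 and 0.843 after removal of the group means.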

How the data were processed

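Total RNA of whole livers was sequenced as single 100-base reads. According to the methods and the submitters' processing notes, reads were checked with FastQC, mapped to GRCm39 with STAR and counted per gene with FeatureCounts on GENCODE M26; the labels name an mRNA library kit and the methods a total RNA kit. The authors deposited 1 normalized count signal per gene and mouse; how the scaling factors were made is not given in the sources used here, though DESeq2 was named for fold changes. FeatureCounts' strand setting is not given either. Columns with the authors' own fold changes and p-values were not used. Each mouse's values were whole multiples of 1 step for 100% of values (tolerance 0.01), so the whole reads were recovered: 19892025 to 28936707 per mouse. No column of another sample was found, and the 25 pairs of mice within groups differed by more than sampling noise (chi-square per gene 14.2 to 100.8).

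Log2(normalized count + 1) values of genes with a mean of at least 10 in the groups compared were fitted with limma 3.58.1 (trend, R 4.3.3), 1 fit per comparison and all 16 mice for the interaction, with Benjamini-Hochberg adjustment over all genes tested and a threshold of 0.05; fold changes on this scale understate those of low genes. For single genes and ratios, exact permutation of mice between groups gave a two-sided p (scipy 1.17.1). edgeR 4.0.16 and DESeq2 1.42.0 on the recovered reads, 2 other pseudocounts, 2 other filters, 2 other scalings, a 1.5-fold limit, a model of all groups, a replicate block and each mouse left out were alternatives. The fit without SSD-fed WT replicate 1 was extended to the gene lists after the data were seen. Fits were checked on simulated data. All 10 genes are named, and of each list up to the 3 largest called changes per direction; some were also given in comparisons outside that rule, after their values were seen, as were the calls that changed without SSD-fed WT replicate 1. The 10 genes, the lists and their tests were chosen with earlier results of these data known. The list entry for transferrin was matched as Trf. Promoter sequences are not reported here. All 10 gene positions are those of the deposited annotation.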

Additional observations from a re-analysis of the deposited data

Results flagged for a closer look

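A pair of genes from the BMP-SMAD lists had a diet effect that differed between genotypes by the interaction test, limma with adjustment over all 13068 genes. For Hjv the fall on SSD was larger in Klrk1-/- mice, with a difference of -0.61 ± 0.13 log2 (adjusted p = 0.034), and the value was -0.58 (adjusted p = 0.0439) without SSD-fed WT replicate 1. For Id2 the diet effect was larger in Klrk1-/- mice by 1.24 ± 0.27 log2 (adjusted p = 0.034), and by 1.29 (adjusted p = 0.0297) without that mouse. Both were read from lists of 78 tested genes, and 0.88% of all genes passed this test. None of the 10 iron genes had a mouse flagged by Dixon's test, which was not applied to the 3 SSD-fed Klrk1-/- mice. Tfr2 in SSD-fed WT replicate 1 was just short of it, with a gap over range of 0.691 against a critical value of 0.71.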

How the results depend on the processing

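Of 970 alternative values for the 10 genes, 891 kept their direction and their side of the threshold, 14 lost a call, 19 gained one and 46 changed sign; the cause was not tested. None of the values that changed sign was called. The number of genes called for the diet in WT mice was 3 instead of 6 with a 1.5-fold limit. For the genotype on NCD it was 4 instead of 2 with quantile normalization, and for the genotype on SSD 1 instead of 0 with equal totals, 2 with DESeq2, 2 with the replicate block (Id1 and Tfrc) and 0 to 2 with a mouse left out. The replicate numbers mark different mice, which shared only a number: same-numbered mice correlated at -0.13 to 0.25 after removal of group means. Except for the interaction, the block also left out mice whose number was missing in the other group, so its values rest on fewer mice. For the diet in Klrk1-/- mice it left out NCD-fed replicate 4. Without that mouse and with no block, the Hamp and Bmp6 values there were the same (-0.17 and 0.53). Under the replicate block the Fth1 call in WT mice (0.46, adjusted p = 0.0954) and the Bmp6 call in Klrk1-/- mice (0.53, adjusted p = 0.0707) were lost. Signs changed under the block for Hamp, diet in Klrk1-/- mice (-0.17), Slc40a1, genotype on SSD (0.0325), and the interactions of Ftl1 (0.0409) and Id1 (-0.0428). With equal totals they changed for Tfr2, diet in Klrk1-/- mice (0.17), Hfe (-0.0926) and Fth1 (-0.0306), genotype on SSD, and the Id1 interaction (-0.0711), and with quantile normalization for Tfr2, diet in Klrk1-/- mice (0.10), Fth1, genotype on SSD (-0.13), and Slc40a1, genotype on NCD (0.0086). edgeR gave 0.0004 for Slc40a1 on NCD and -0.17 for the Id1 interaction, for which DESeq2 gave -0.19. With a mouse left out, diet effects ran from -0.0584 to 0.10 for Hfe in WT mice, and from -0.22 to 0.28 for Hamp and -0.0145 to 0.18 for Ftl1 in Klrk1-/- mice. Genotype effects on NCD ran from -0.18 to 0.0715 for Tfrc, -0.0833 to 0.0387 for Slc40a1 and -0.0184 to 0.34 for Hamp, and on SSD from -0.0287 to 0.0518 for Hfe. Interactions ran from -0.10 to 0.21 for Bmp6, -0.29 to 0.32 for Id1, -0.13 to 0.06 for Ftl1, -0.13 to 0.0084 for Slc40a1 and -0.15 to 0.0050 for Fth1. Over all 25 alternatives the interaction reached -0.45 for Fth1 (-0.0825 in the main fit) and -0.40 for Ftl1 (-0.0246), and it passed in none.

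Equal totals moved the median of all genes by 0.34, 0.25 and -0.12 log2 for the diet in WT mice, the diet in Klrk1-/- mice and the genotype on SSD, and changed the genes higher and lower for the diet in WT mice from 2265 and 2303 to 6339 and 717, and in Klrk1-/- mice from 1723 and 2067 to 4830 and 805. For the genotype on SSD, where limma called 381 genes, DESeq2 called 1221, a model of all groups 949, the block 710 and fits without 1 mouse 45 to 717. The interaction called 115 genes in limma and 460 in DESeq2, 42 under the block and 37 to 187 with a mouse left out; the genotype on NCD called 1679 and 717 to 2189 with a mouse left out. The diet in WT mice called 4568 genes and 2974 under the block, and in Klrk1-/- mice 3790 and 2397 without SSD-fed replicate 1. Low read counts limit the values of Klrk1 in Klrk1-/- mice, at 1 to 7 reads.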
